A study of Saccharomyces cerevisiae with 4 samples.

Results

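The genes described here encode subunits of the vacuolar proton ATPase of *Saccharomyces cerevisiae*: VMA1 to VMA8, VPH1 and STV1. They are defined by systematic name, and all 10 are among the 6212 rows of the deposited table. Each of the 10 had a value on all 4 arrays, so every member is among the 4255 genes that could be tested. A trk1 trk2 double mutant in the BY4741 background, which lacks both genes for high-affinity potassium uptake, was hybridised against wild-type BY4741 on 4 dual-colour arrays. Both strains grew at 28 °C in a medium with 15 µM potassium of its own with KCl added to 50 mM, and log-phase cells were collected at an A600 of 0.6. The comparison asks which transcripts differ without the Trk system when potassium is plentiful. The series describes 2 independent experiments, both dye-swapped, and arrays 1 and 2 were read as experiment 1 and arrays 3 and 4 as experiment 2. The sample titles carry a separate Exp number for each array, so this pairing is an assumption. Both strains share the auxotrophies of BY4741, and the labels do not say how many mutant clones were used.

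The vacuolar proton ATPase is a rotary pump that acidifies the vacuole and other compartments of the secretory pathway. Its peripheral V1 sector hydrolyses ATP in the cytosol, and its membrane-embedded Vo sector carries protons across the membrane. The gradient it builds drives proton-coupled exchangers and transporters of the vacuole, and yeast cells without the pump grow poorly at neutral pH or in high calcium. The pump is also regulated after translation, since V1 detaches from Vo when glucose is withdrawn, so a transcript ratio is not a measure of pump activity.

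Each value below is the deposited log ratio of the mutant to the wild type, read as base 2. A mean is taken over the 2 experiments, and its ± is the moderated standard error from limma (n = 2 experiments). Every adjusted p comes from the same limma fit, with Benjamini-Hochberg adjustment over 4255 genes. Mutant cDNA was labelled with Cy5 for arrays 1 and 4 and with Cy3 for the others. TRK1 read −6.13 on array 1 and −4.60 on array 4, and TRK2 read −4.23 on array 4, their only values. Array 4 stood apart before any member was considered: over the 4255 genes it correlated with the other arrays at 0.273 to 0.392, whereas arrays 1 to 3 correlated with each other at 0.552 to 0.796.

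None of the 10 subunit genes passed an adjusted p of 0.05, in a test that called 143 of 4255 genes (3.36%), 69 of them higher in the mutant (1.62%) and 74 lower (1.74%). At an unadjusted p under 0.05, 2 members passed, both lower, beside 12.9% of all genes that passed as lower. These were STV1, an isoform of the membrane subunit a, at 62.2% of the wild-type level, and VMA5, the C subunit of V1, at 65.8%. VMA2 and VPH1 read 76.4% and 76.7% of wild type, VMA7 read 125%, and the remaining 5 lay between 90.7% and 102%. The smallest change that the test called anywhere was 0.86 on the log2 scale, and every member lay closer to 0 than that.

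**Figure D1:**
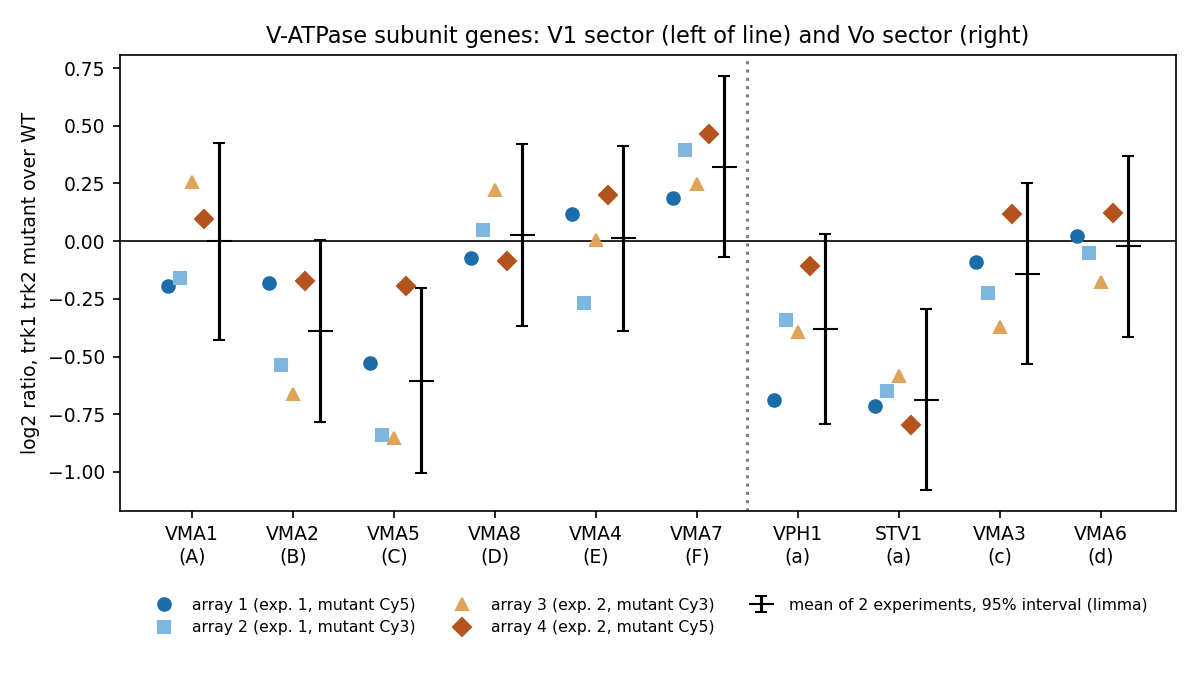
Log2 ratio of the trk1 trk2 mutant over wild type for the 10 subunit genes, with the subunit letter in brackets. Coloured points are the 4 arrays and the black bars are the mean of 2 experiments with limma's 95% interval, unadjusted. The 4 points of VMA2, VMA5, VPH1 and STV1 lie below 0 and those of VMA7 above 0.

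The catalytic head of V1 alternates the A and B subunits. VMA1 (YDL185W) encodes subunit A, which binds and hydrolyses ATP, and its protein also contains a self-splicing intein that is released as the homing endonuclease VDE. VMA1 read −0.19 and −0.16 on arrays 1 and 2 of experiment 1, and 0.26 and 0.10 on arrays 3 and 4 of experiment 2. The sign thus changed with the experiment, which left a mean of −0.00025 ± 0.18 (adjusted p = 0.999). VMA2 (YBR127C), which encodes the regulatory nucleotide-binding subunit B, read −0.18, −0.54, −0.66 and −0.17 on arrays 1 to 4. All 4 values were negative, and those with the mutant in Cy3 lay further from 0 than those with the mutant in Cy5. The mean was −0.39 ± 0.16, or 76.4% of wild type with a 95% interval of 58.2% to 100.3% (adjusted p = 0.252). Subunits A and B occupy equivalent places in the same ring, yet VMA2 was lower than VMA1 on 3 of 4 arrays, and on array 1 the 2 were 0.01 apart.

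The central rotor of V1 contains subunits D and F, which turn with ATP hydrolysis. VMA8 (YEL051W), for subunit D, read −0.07, 0.05, 0.22 and −0.09, so its values fell on both sides of 0. Its mean was 0.03 ± 0.16 (adjusted p = 0.940). VMA7 (YGR020C), for subunit F, read 0.19, 0.39, 0.25 and 0.47, and it was the only one of the 10 with a positive value on every array, as 17.5% of all genes had. The mean of 0.32 ± 0.16 corresponds to 125% of wild type (95% interval 95.3% to 164%, adjusted p = 0.321). VMA7 exceeded 8 of the other 9 members on all 4 arrays.

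The stator of V1 includes subunit E, which is part of the peripheral stalks, and subunit C, which joins those stalks to Vo and leaves the complex when V1 detaches. VMA4 (YOR332W), for subunit E, read 0.12, −0.27, 0.004 and 0.20, with no common sign and a mean of 0.01 ± 0.17 (adjusted p = 0.975). VMA5 (YKL080W), for subunit C, read −0.53, −0.84, −0.85 and −0.20. All 4 values were negative, with the 2 lowest on the arrays that had the mutant in Cy3. The mean was −0.60 ± 0.17, which is 1.52-fold lower (95% interval 49.9% to 86.8% of wild type, unadjusted p = 0.00966 and adjusted p = 0.114 in limma). VMA5 passed the threshold when arrays 1 and 3 were paired instead (adjusted p = 0.0237) and when experiment entered as a random block (adjusted p = 0.0440), and in none of the other 10 alternatives. That pairing, quoted for further genes below, called 473 of 4255 genes lower and 255 higher. The random block called 292 lower and 185 higher, against 74 and 69 in the main fit. Its adjusted p over all 12 ran from 0.0237 to 0.621.

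In the membrane sector, subunit a holds the half-channels through which protons pass, and it is the only subunit of the yeast pump with isoforms from separate genes. VPH1 (YOR270C) encodes the isoform of the vacuole membrane and STV1 (YMR054W) the isoform of Golgi and endosomes. STV1 read −0.71, −0.65, −0.58 and −0.80 on arrays 1 to 4, the narrowest spread of the 10 (SD 0.09, n = 4 arrays). It was the lowest member, and its means in experiments 1 and 2, −0.68 and −0.69, differed by 0.01. The mean of −0.69 ± 0.16 is 1.61-fold lower, with a 95% interval of 47.4% to 81.5% of wild type (unadjusted p = 0.00486, adjusted p = 0.0819). STV1 ranked at place 201 from the lowest of 4255 mean ratios, and 126 genes with a lower mean also went uncalled. It passed the threshold under that other pairing (adjusted p = 0.0153), the random block (0.0156), 4 separate arrays (0.0183) and a dye term (0.0362). In the same order, these fits called 473, 292, 250 and 142 of 4255 genes lower, against 74 in the main fit. The adjusted p of STV1 over its 12 alternatives ran from 0.0153 to 0.50. The first of these fits is right only if arrays 1 and 3 belong together. The fits of 4 separate arrays, without and with a dye term, treat a dye-swapped repeat as a further replicate. The random block keeps the 4 arrays as observations, with a correlation within experiments that is common to all genes.

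VPH1 read −0.69, −0.34, −0.39 and −0.11, negative on every array and nearest to 0 on array 4. Its mean was −0.38 ± 0.17, or 76.7% of wild type (95% interval 57.7% to 102%, adjusted p = 0.277). The within-array difference of VPH1 minus STV1 was 0.03, 0.31, 0.19 and 0.69, so STV1 had the lower ratio on 4 of 4 arrays. The difference averaged 0.30 with an SD of 0.28 (n = 4 arrays). An exact two-sided sign-flip permutation test over the 4 arrays gave p = 0.125, the smallest p that 4 arrays allow, and over the 2 experiments the smallest possible p is 0.5. With so few arrays and experiments, the sign-flip test therefore cannot decide whether the isoforms differ. The difference between them was not tested in any other way. The difference was 0.18 without array 4 and 0.43 without array 3.

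VMA3 (YEL027W), for the proteolipid subunit c that makes up most of the rotating proton ring, read −0.09, −0.23, −0.37 and 0.12. Only array 4 gave a positive value, and the mean was −0.14 ± 0.16 (adjusted p = 0.659). VMA6 (YLR447C), for subunit d, which couples the ring to the V1 rotor, read 0.02, −0.05, −0.18 and 0.12. Its values straddled 0 and averaged −0.02 ± 0.16 (adjusted p = 0.953). For VMA1, VMA4, VMA6 and VMA8, whose means were closest to 0, the 95% intervals reached down to 74.4% and up to 134% of wild type, so smaller changes could not be seen.

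By mean ratio the members ran STV1, VMA5, VMA2, VPH1, VMA3, VMA6, VMA1, VMA4, VMA8 and VMA7. Of the 9 neighbouring pairs in this order, 6 differed by less than the SD of their difference over the arrays, and 4 kept their order on all 4 arrays. STV1 and VMA5 changed places, with VMA5 lower on arrays 2 and 3 and STV1 lower on arrays 1 and 4. Over all 45 pairs, 30 kept their order on all 4 arrays, where 37.9% of all pairs of tested genes did. The 45 pairs are built from the same 10 genes and are not independent of each other. Of the 10 means, 7 were below 0, as were 55.2% of all genes. VMA2, VMA5, VPH1 and STV1, 4 of the 10, were negative on all 4 arrays, beside 21.1% of all genes. VMA5 and STV1 were also at least 1.5-fold lower in the mean, as were 6.67% of all genes under the same rule. A set of 10 genes gives only a coarse share, and no test was made of these counts.

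**Figure D2:**
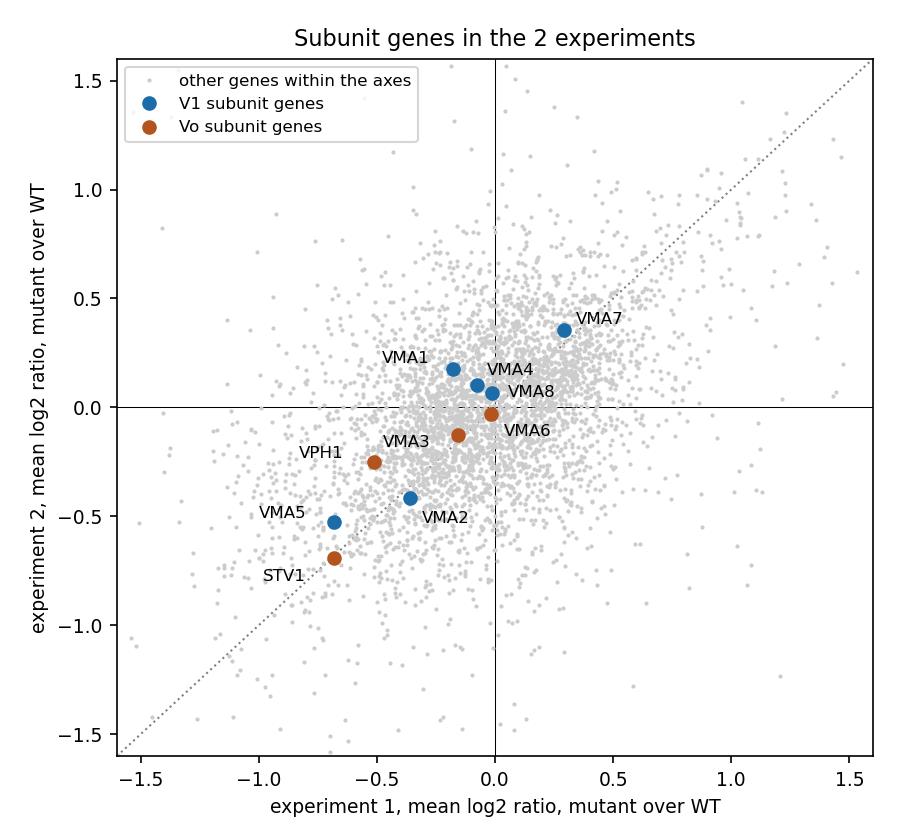
Mean log2 ratio in experiment 2 against experiment 1 for V1 (blue) and Vo (orange) subunit genes over the other tested genes (grey, only those within the axes). The dotted line marks equal values. STV1 lies on it at −0.68 and −0.69, and VMA1 lies farthest from it among the subunit genes, at −0.18 and 0.18.

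The 2 experiments gave similar means for most members. The absolute difference between experiment means had a median of 0.07 over the 10 members and 0.25 over all 4255 genes. VMA1 differed most, by 0.35, and STV1 and VMA6 least, by 0.01 each. The members differed more between dye orientations than between experiments. Array 4, which stood apart, has the mutant in Cy5, as array 1 does, and its share in the dye differences was not tested. Arrays with the mutant in Cy5 minus arrays with the mutant in Cy3 gave an absolute median of 0.20 over the members and 0.26 over all genes. The absolute median of the members' means was of similar size, at 0.23. VMA5 and VMA2 showed the largest such differences, 0.48 and 0.42, and the signed median was 0.10 over the members and 0.12 over all genes. For STV1 it was −0.14, so STV1 was low in both orientations, at −0.76 with the mutant in Cy5 and −0.62 with the mutant in Cy3. Arrays 1 and 2, with the mutant in Cy5 and Cy3, leave array 4 out. VMA5 read −0.53 and −0.84 on them, and VMA2 −0.18 and −0.54. The part of the dye in the values of VMA5 and VMA2 was not tested further. The means cancel a dye shift only where it is equal on both arrays of a swap.

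The median of the 10 members was −0.14, −0.25, −0.27 and 0.005 on arrays 1 to 4, against −0.02, −0.09, −0.09 and 0.04 for all genes. On every array the members' median thus lay below that of all genes, by 0.04 on array 4 and by 0.12 to 0.19 on the others. The median of the members' means was −0.08, against −0.04 for all genes. Without array 4 it was −0.18, against −0.0755 for all genes. The V1 members had a median of 0.01 and the Vo members one of −0.26. The within-array difference of the V1 minus the Vo median was 0.26, 0.07, 0.50 and −0.0005, and its mean of 0.21 was smaller than its SD of 0.22 over the 4 arrays. Without array 3 it was 0.08 and without array 4 it was 0.33.

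**Figure D3:**
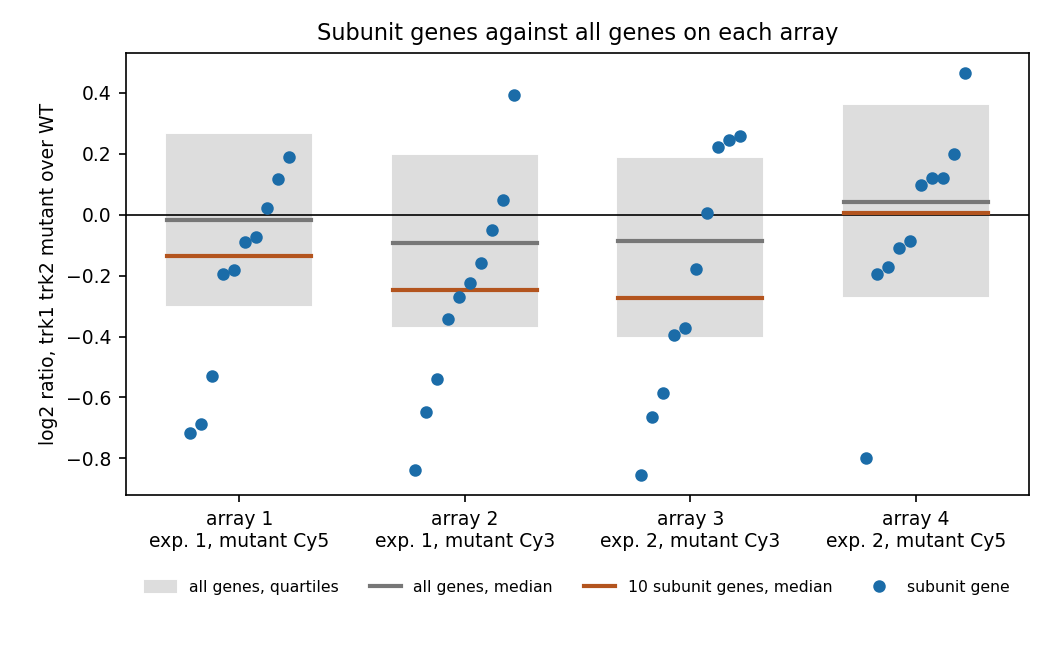
Log2 ratios of the 10 subunit genes (blue points, sorted within each array) with their median (orange line), over the quartiles (grey box) and median (grey line) of the 4255 genes with a value on all 4 arrays. The members' median lies below the grey line on every array, and on array 4 it is 0.04 below it.

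Of the 6 further subunits of the pump, VMA9 and VMA10 have no row in the table, and 0 of the 4 measured passed the test. VMA13 (YPR036W), for the regulatory subunit H of V1, read 0.07, −0.02, 0.18 and 0.24, with a mean of 0.12 ± 0.17 (adjusted p = 0.713). The other proteolipids of the ring, VMA11 (YPL234C, subunit c′) and VMA16 (YHR026W, subunit c″), were negative on every array. VMA11 read −0.19, −0.29, −0.58 and −0.11 and averaged −0.29 ± 0.16 (adjusted p = 0.368). VMA16 read −0.41, −0.33, −0.60 and −0.45 and averaged −0.45 ± 0.17, or 73.4% of wild type (adjusted p = 0.199, but 0.0498 with arrays 1 and 3 paired). The proteolipids are related in sequence, and without the probe sequences, signal shared between VMA3, VMA11 and VMA16 cannot be told apart. VOA1 (YGR106C), for a membrane protein of the Vo sector, read −0.21, −0.42, −0.51 and 0.06. Its mean was −0.27 ± 0.16 (adjusted p = 0.401).

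Vo is put together in the endoplasmic reticulum with the help of dedicated chaperones, and the RAVE complex rejoins V1 to Vo. Of the 8 assembly genes measured, 0 passed the test, with a median of −0.03. Among the chaperones, VPH2 and VMA22 averaged 0.15 and 0.27 and VMA21 and PKR1 averaged −0.28 and −0.11, each with 1 array of the opposite sign. VMA21 and VOA1 are neighbouring genes in the RefSeq table, and both were negative on arrays 1 to 3 and positive on array 4. The RAVE subunits RAV1 (YJR033C) and RAV2 (YDR202C) had opposite signs on all 4 arrays. RAV1 read −0.29, −0.63, −1.31 and −0.27, a mean of −0.62 ± 0.17 (unadjusted p = 0.0109, adjusted p = 0.118, but 0.0302 with arrays 1 and 3 paired), and the mean was −0.36 without array 3. RAV2 read 0.36, 0.29, 0.10 and 0.20, a mean of 0.24 ± 0.17 (adjusted p = 0.464). SKP1, which RAVE shares with ubiquitin ligases, averaged 0.04. OXR1, which promotes disassembly of the pump, averaged −0.35 and differed between experiments, with means of 0.11 in experiment 1 and −0.81 in experiment 2. The difference between RAV1 and RAV2 was noticed in these data and was not tested.

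**Figure D4:**
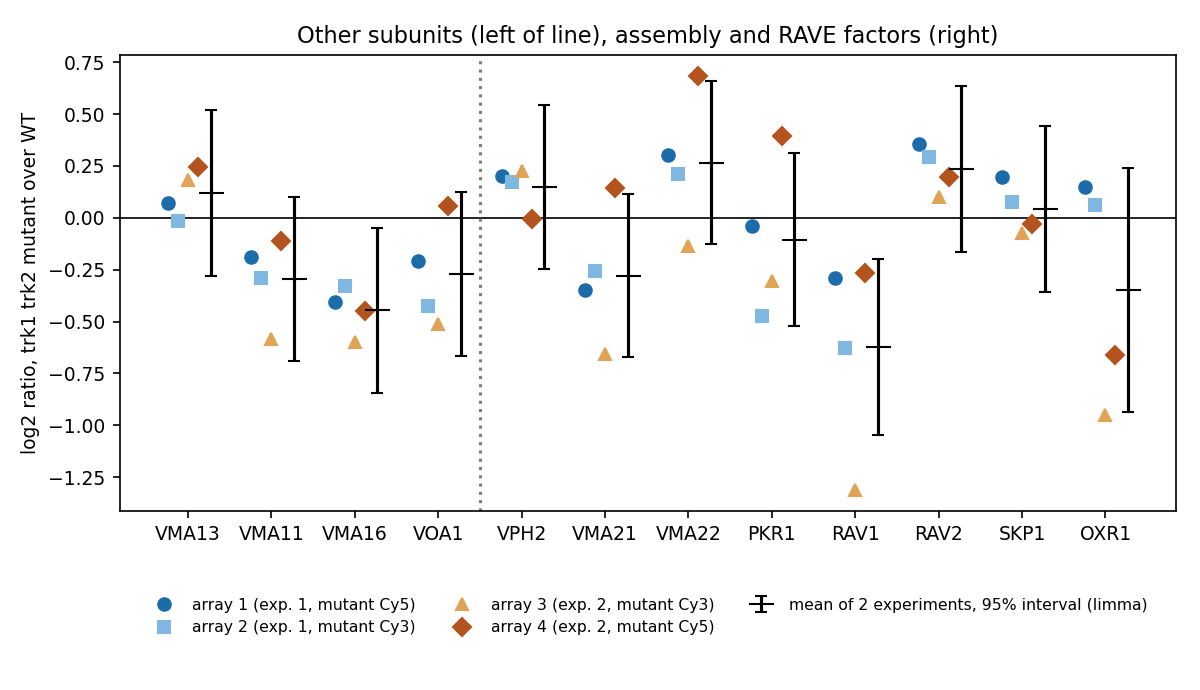
Log2 ratio of the mutant over wild type for the 4 other measured subunits and the 8 assembly and RAVE genes, drawn as for the 10 subunit genes above (4 arrays, then the mean of 2 experiments with limma's 95% interval). RAV1 lies below 0 and RAV2 above 0 on every array, and OXR1 is split by experiment.

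Genes that use or surround the proton gradient were described from lists of the same kind. Among 8 measured transporters of vacuole, endosome or Golgi, 0 of the 8 passed, 5 were negative on all 4 arrays (21.1% of all genes were) and the median was −0.29, against −0.04 for all genes. AVT1 (YJR001W), which imports amino acids into the vacuole in exchange for protons, was the lowest. It read −0.64, −0.81, −0.87 and −0.68, a mean of −0.75 ± 0.16 (adjusted p = 0.0644). The highest, VBA1, a permease for basic amino acids, averaged 0.20 ± 0.16 (adjusted p = 0.529). NHX1, the endosomal sodium and potassium exchanger, took the place next to STV1 in the order of all genes, with a mean of −0.69 (adjusted p = 0.0834), and was named after its value was seen.

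In the vacuolar hydrolases, whose maturation depends on an acid lumen, 1 of the 7 genes with values on all 4 arrays fell and 0 rose, beside 1.74% and 1.62% of all genes. APE3 (YBR286W), aminopeptidase Y, read −1.06, −1.31, −1.12 and −0.99 and fell 2.18-fold (−1.12 ± 0.16, adjusted p = 0.0236). Its call ended without array 2 (adjusted p = 0.0585) and without array 3 (0.395), where no gene passed. The highest hydrolase, PRB1, proteinase B, averaged 0.29 ± 0.20 with values of 0.66, 0.53, 0.68 and −0.71 (adjusted p = 0.464). The list's median was −0.86 on array 4 and −0.14 to 0.06 on arrays 1 to 3. The subunit genes showed no such drop, since their own median on array 4 was 0.005.

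The mitochondrial ATP synthase is a related rotary enzyme. Of its 12 subunit genes with values on all 4 arrays 0 passed the test, and the median was 0.09. On every array 5 of the 12 were positive and 4 negative, beside 17.5% and 21.1% of all genes. ATP20, for subunit g, was lowest at −0.67 ± 0.19 (adjusted p = 0.115, but 0.0234 with arrays 1 and 3 paired), and ATP15, for subunit epsilon, was highest at 0.29 ± 0.16 (adjusted p = 0.365). ATP2 and ATP1, the relatives of VMA1 and VMA2, were named after their values were seen and averaged −0.37 and −0.40, and are among the 4 negative on every array (adjusted p = 0.281 and 0.254). PMA1, the proton pump of the plasma membrane, averaged −0.41 ± 0.26 (adjusted p = 0.423) and was split by experiment, with means of −0.92 in experiment 1 and 0.10 in experiment 2. Its value on array 4, 0.114, is shared by 24 rows and is the most frequent one there, so PMA1 cannot be read as unchanged on that array. PMA2 was empty on every array.

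**Figure D5:**
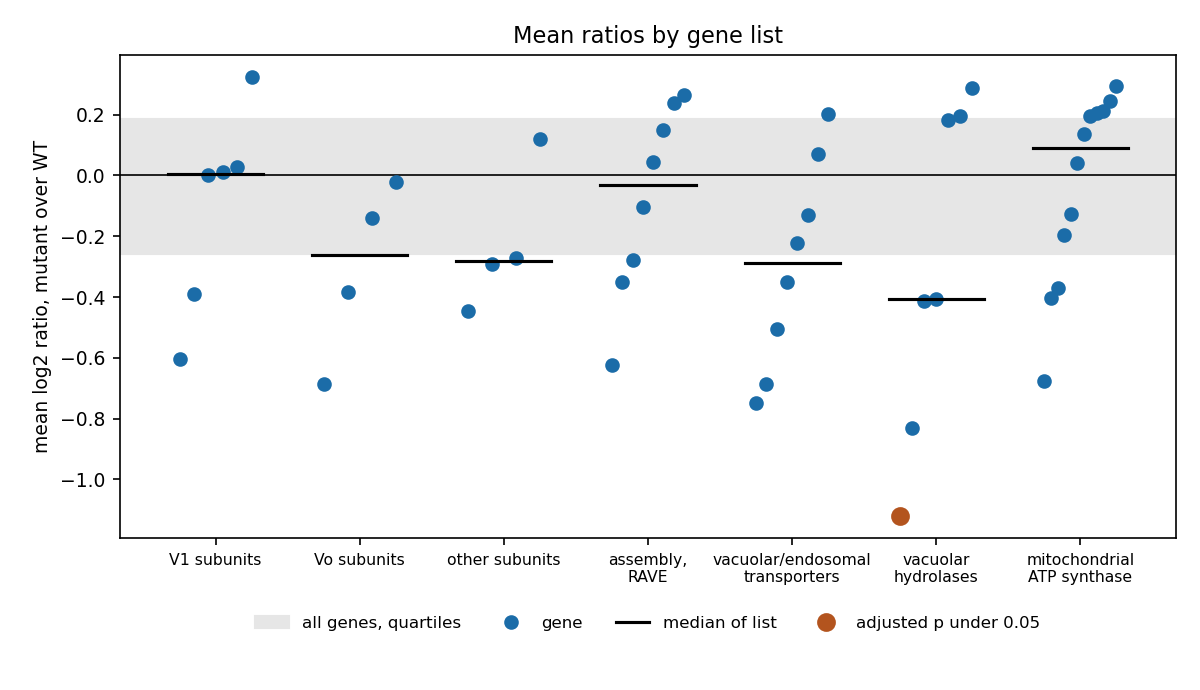
Mean log2 ratio of the mutant over wild type for each gene with values on all 4 arrays, by list. Black lines are list medians, the grey band holds the middle quartiles of all tested genes, and the orange point, APE3, is the only one of the 49 genes drawn that passed an adjusted p of 0.05.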

How the data were processed

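Log2 ratios of 2-colour arrays were used as the authors deposited them, 1 value per gene and array. Per the labels, cDNA came from 8 µg of total RNA, and spots below 120 µm or 100 fluorescence units were set aside. How the ratios were normalized and centred, and their log base, is not given in the sources used here. The ratios were taken as base 2, and their direction from the negative TRK1 and TRK2 values and the positive correlation of dye-swapped arrays. Arrays were assigned to experiments by the wording of their descriptions, and only the word independent speaks for separate cultures.

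The arrays held 4690 to 5403 values, and their number limits the precision. Genes with 4 values were averaged within an experiment, and the 2 means were compared with 0 by limma 3.58.1 (lmFit and eBayes, R 4.3.3). P-values were adjusted by Benjamini-Hochberg, with calls at 0.05. The prior had 5.33 degrees of freedom and rests on 1 residual degree of freedom per gene. The fit was tested on simulated data. Alternatives changed the pairing, replicate structure, centring, scaling, filter, shrinkage and arrays used. Names came from a RefSeq gene table (R64), in which no member overlaps another gene, and 5644 rows matched exactly and 18 ignoring case.

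Members and lists were chosen with earlier results of these data known. All subunit and assembly genes were described, and from each further list the genes past the test and the highest and lowest mean.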

Additional observations from a re-analysis of the deposited data

Results flagged for a closer look

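Among 50 listed genes with 4 values, 3 had 1 array far from the other 3, and none of these was among the 10 subunit genes. Such a gap is found by chance in about 5% of groups, and 6.77% of all 4255 genes showed one. In each case the array was array 4. PRB1 read −0.71 there, against 0.53 to 0.68 on the others. APE1, the vacuolar aminopeptidase I, read −0.96 there and 0.54 to 0.58 on the others. ZRC1, the vacuolar zinc transporter, read −0.001 there and −0.50 to −0.41 on the others. The part that array 4 plays in these values was not tested.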

How the results depend on the processing

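No paired analysis was possible because there is 1 group of ratios, so no replicate number is shared between groups, and the strains are already compared within each array. Members past the threshold, 0 of 10 in the main result, were 2 with the other dye-balanced pairing (STV1 and VMA5), 2 with the experiment as a random block, 1 with 4 separate arrays and 1 with a dye term, all lower, and 0 with any 1 array left out. Members at an unadjusted p under 0.05 were 2 lower in the main result, 4 lower and 1 higher with the other pairing, with 4 separate arrays, with a dye term and with a random block, and 3, 2, 1 and 4 lower without array 1, 2, 3 and 4. Over all genes, 69 higher and 74 lower calls became 255 and 473 with the other pairing, 163 and 250 with 4 separate arrays, 103 and 142 with a dye term, 185 and 292 with a random block, 106 and 99 with centred arrays, and 40 and 39 when 1 array per experiment sufficed. Leaving out 1 array gave 0 to 96 higher and 0 to 121 lower calls, with 0 in limma without array 3, where 385 genes had an unadjusted p under 0.05. For the other alternatives, no count of all genes at that unadjusted level was made. Members near 0 changed sign, as did PKR1 and PRB1, which are not members. With centred arrays VMA1 stood at 0.0511 and VMA6 at 0.0299, and with scaled arrays VMA1 at 0.0469 and VMA6 at 0.0287. With 1 array left out VMA1 ran from −0.0405 to 0.04, VMA4 from −0.0835 to 0.109, VMA6 from −0.096 to 0.053, VMA8 from −0.05 to 0.10, PKR1 from −0.28 to 0.0682 and PRB1 from −0.0573 to 0.63. Without array 3 and without array 4 VMA3 stood at −0.019 and −0.26, VMA11 at −0.17 and −0.41, VOA1 at −0.13 and −0.41, VMA21 at −0.08 and −0.48, VMA22 at 0.47 and 0.06, and RAV1 at −0.36 and −0.88. With 1 array left out, the members' median ran from −0.18 to −0.05 and that of all genes from −0.0755 to 0.0055. VPH1 minus STV1 ran from 0.18 to 0.43 and V1 minus Vo from 0.08 to 0.33. Members positive on every remaining array numbered 1 to 2. The 2 came without array 2, where 20.35% of all genes were positive, against 17.5% on all 4 arrays. Negative members numbered 4 to 5. The 5 came without array 4, where 33.8% of all genes were negative, against 21.1% on all 4 arrays. AVT1 passed in 4 of 12 alternatives and ATP20 in 3. The cause of these shifts was not tested. Spot brightness was not used, so weak spots could not be set apart.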
